A study of Mus musculus with 10 samples.

Results

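The genes described are 10 genes taken as markers of pigment cells of the eye, Pmel, Tyrp1, Tyr, Dct, Mlana, Slc45a2, Mitf, Best1, Ttr and Mlph. They were chosen by gene symbol, and all 10 were found among the 36115 genes of the deposited count table. All 10 also passed the low-count filter that left 18965 genes for testing. The libraries are bulk retina RNA from untreated mice aged 3 months on a C57BL/6 background, with 5 libraries labelled B6.129S2-Il6tm1Kopf/J (K1 to K5) and 5 labelled wild type (W1 to W5). The Il6tm1Kopf allele is a germline disruption of the cytokine gene Il6, present in all cells of the animal, and the labels give neither sex, litter nor C57BL/6 substrain. Whether each library stands for its own animal is not stated, so a p-value here reflects the scatter among samples and that scatter may be technical.

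The retinal pigment epithelium is a single layer of melanin-bearing cells that lies against the photoreceptor outer segments and recycles the visual chromophore. It is not part of the neural retina, and a variable amount of it stays attached when a retina is peeled from the eye cup. Melanin is made inside melanosomes, where tyrosinase and its relatives oxidise tyrosine on fibrils built from PMEL. The transcription factor MITF switches on many of these genes by binding a short promoter element called the M-box. Choroidal melanocytes and the pigmented layers of the iris and ciliary body use the same melanin enzymes. The melanin enzyme genes therefore mark pigment cells as a class, whereas Rpe65, the isomerase of the visual cycle, marks the pigment epithelium.

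Il6 had 3, 3, 5, 7 and 4 counts in K1 to K5, against 0, 0, 1, 1 and 1 counts in W1 to W5. Its sum was 22 counts in the libraries labelled knockout and 3 counts in the wild-type libraries, the reverse of what absent Il6 RNA would give. These counts are few, and counts per gene cannot show whether the disrupted part is read, so they do not settle whether the labels hold. The groups are therefore called libraries labelled knockout and wild-type libraries. Total counts lay between 32783048 and 38517067 in the libraries labelled knockout and between 30433373 and 38857374 in the wild-type libraries. The tissue label matched its defining markers. Gnat1, the rod transducin subunit, stood at 10997.3 to 15359.9 CPM (counts scaled to library size with TMM factors) in the libraries labelled knockout and at 10796.5 to 14609.5 CPM in the wild-type libraries. W5 stood apart in most of the members, far below all other libraries, and W3 stood apart in its ratio of melanin genes to Rpe65. Fold changes, slopes and correlations with Rpe65 were therefore also computed with these libraries left out. K5 carries another second index sequence than the other 9 libraries.

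No member passed the test between the genotypes. Levels of the melanin enzymes, the melanosome matrix gene and Ttr spanned more than 10-fold between libraries of the wild-type group alone, and the libraries labelled knockout lay inside that span. The edgeR quasi-likelihood test called 0 of the 10 members (Benjamini-Hochberg adjusted p under 0.05 over all genes tested), and 2.03% of the 18965 tested genes were called. At that rate a count of 0 among 10 is no result about the members. In this fit, with genotype as the only term and all 10 libraries, an unadjusted edgeR p under 0.05 was also reached by 0 members, against 13.8% of all tested genes. DESeq2 and limma-voom called 0 members as well. In 0 of the 10 genes did every library of one group lie above every library of the other, a pattern that 3.48% of tested genes showed. The members' log2 fold changes had a median of -0.01, 4 positive and 6 negative, beside a median of 0.0018 over all tested genes. In the authors' deposited table, the log2 fold changes of knockout over control lay between -0.22 for Slc45a2 and 0.06 for Tyr, with adjusted p between 0.608 and 0.998.

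**Figure D1:**
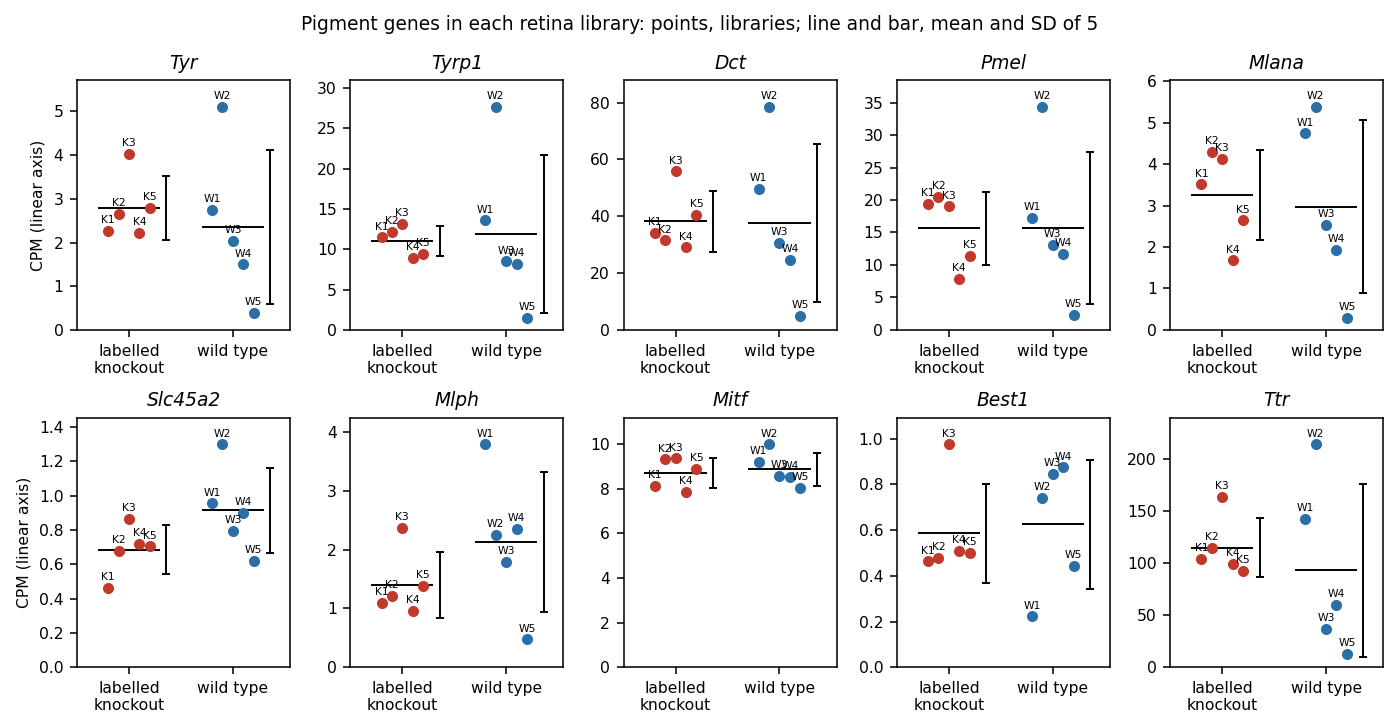
Each panel plots one gene in CPM on a linear axis that starts at 0, with 1 point per library, libraries labelled knockout on the left and wild-type libraries on the right, and the mean and SD of 5 libraries in black. W2 is highest and W5 lowest in Tyr, Tyrp1, Dct, Pmel, Mlana and Ttr, while Mitf stays between 7.86 and 9.98 CPM.

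The melanin-synthesis enzymes come first. Tyr encodes tyrosinase, which carries out the first and rate-limiting step, Tyrp1 encodes tyrosinase-related protein, which stabilises tyrosinase, and Dct encodes dopachrome tautomerase. Their 3 promoter windows are shown because these enzymes followed one another across libraries and each window holds the M-box TCATGTG. The windows are RefSeq sequence of build GRCm38.p6, written on the strand of the gene, and the M-box or its reverse complement CACATGA is in capitals. Tyr lies on the minus strand (chr7:87493463-87493762), Tyrp1 on the plus strand (chr4:80833963-80834262) and Dct on the minus strand (chr14:118052197-118052496).
Tyr: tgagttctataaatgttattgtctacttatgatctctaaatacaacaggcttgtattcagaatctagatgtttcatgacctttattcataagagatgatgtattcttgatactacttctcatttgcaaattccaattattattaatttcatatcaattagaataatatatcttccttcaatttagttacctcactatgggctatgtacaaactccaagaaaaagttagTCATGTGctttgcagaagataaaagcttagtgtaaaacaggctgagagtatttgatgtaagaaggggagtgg
Tyrp1: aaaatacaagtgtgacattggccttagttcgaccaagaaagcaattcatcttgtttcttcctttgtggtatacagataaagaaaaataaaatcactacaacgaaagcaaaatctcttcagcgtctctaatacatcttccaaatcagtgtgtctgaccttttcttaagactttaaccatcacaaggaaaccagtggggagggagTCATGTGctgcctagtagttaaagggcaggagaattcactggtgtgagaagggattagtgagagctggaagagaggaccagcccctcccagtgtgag
Dct: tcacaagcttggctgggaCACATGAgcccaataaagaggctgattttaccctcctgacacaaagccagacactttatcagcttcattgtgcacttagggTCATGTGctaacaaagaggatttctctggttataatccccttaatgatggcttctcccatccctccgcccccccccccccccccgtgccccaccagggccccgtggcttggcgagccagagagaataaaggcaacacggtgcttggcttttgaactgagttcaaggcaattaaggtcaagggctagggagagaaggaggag
Counted from 0 at the annotated start, the M-box begins at -22 in Tyr, at -47 in Tyrp1 and at -232 and -151 in Dct, the first of the Dct matches being on the opposite strand. The promoter table held windows for 6 of the 10 members, 8 windows in all because Mitf has several starts, and 3 of the 8 held TCATGTG on either strand. Of all 32851 windows of 300 bases in the table, 3.77% held it. The E-box CATGTG, which lies within TCATGTG, was found in the same 3 members' windows and in 14.2% of all windows. Such a match is a string of letters and no measurement of binding.

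Tyr (chromosome 7, 87424771 to 87493512, GRCm38) stood at 2.26, 2.65, 4.04, 2.22 and 2.79 CPM in K1 to K5, against 2.74, 5.10, 2.04, 1.498 and 0.385 CPM in W1 to W5. The groups overlapped, with W2 above and W5 below every library labelled knockout. The means were 2.79 ± 0.738 CPM in the libraries labelled knockout and 2.35 ± 1.76 CPM in the wild-type libraries (SD, n = 5 each), and the edgeR log2 fold change was 0.26 ± 0.42 (SE; adjusted p = 0.847).

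Tyrp1 (chromosome 4, 80834123 to 80851719) stood at 11.5, 12.2, 13.2, 8.91 and 9.42 CPM in K1 to K5, against 13.6, 27.6, 8.48, 8.14 and 1.54 CPM in W1 to W5. The libraries labelled knockout were close together, and W2 and W5 again formed the ends of the wild-type range. Dct (chromosome 14, 118012792 to 118052246) stood at 34.1, 31.6, 55.8, 29.1 and 40.4 CPM in K1 to K5, against 49.6, 78.5, 30.6, 24.6 and 5.003 CPM in W1 to W5. Both genes overlapped between the groups, with log2 fold changes of -0.10 ± 0.44 for Tyrp1 and 0.02 ± 0.43 for Dct (SE; edgeR adjusted p = 0.951 and 0.988).

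Pmel (chromosome 10, 128704195 to 128720238) encodes the protein of the fibrils on which melanin is laid down. It stood at 19.4, 20.5, 19.0, 7.86 and 11.4 CPM in K1 to K5, against 17.3, 34.3, 13.1, 11.7 and 2.28 CPM in W1 to W5. The means were 15.6 ± 5.64 CPM in the libraries labelled knockout and 15.7 ± 11.7 CPM in the wild-type libraries (SD, n = 5 each), a log2 fold change of -0.003 ± 0.443 (SE; 95% interval -0.95 to 0.94, edgeR adjusted p = 0.999). Exons of Pmel overlap those of Dgka and Cdk2 on the opposite strand, and the sources used here do not give the strand setting of the counting, so some of its reads could belong to those genes.

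Mlana (chromosome 19, 29697921 to 29708448) encodes a melanosome membrane protein that binds PMEL. It stood at 3.51, 4.29, 4.12, 1.68 and 2.64 CPM in K1 to K5, against 4.74, 5.38, 2.54, 1.92 and 0.296 CPM in W1 to W5. As in Pmel, K4 was the lowest library labelled knockout, and W5 lay below every other library. The log2 fold change was 0.14 ± 0.47 (SE, edgeR adjusted p = 0.939).

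Slc45a2 (chromosome 15, 11000721 to 11029233), a transporter of the melanosome membrane needed for pigmentation, was low and varied less. It stood at 0.463, 0.677, 0.863, 0.720 and 0.704 CPM in K1 to K5, against 0.955, 1.30, 0.793, 0.899 and 0.622 CPM in W1 to W5. K1 was lowest and W2 highest, W5 stood above K1, and the groups overlapped. Each value rests on 17 to 42 counts. The log2 fold change was -0.41 ± 0.25 (SE; 95% interval -0.95 to 0.13, edgeR adjusted p = 0.518).

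Mlph (chromosome 1, 90915085 to 90951142) encodes melanophilin, which couples RAB27A on the melanosome to the motor myosin Va. It stood at 1.09, 1.21, 2.37, 0.960 and 1.38 CPM in K1 to K5, against 3.79, 2.26, 1.80, 2.35 and 0.474 CPM in W1 to W5. Here W1 and not W2 was highest, and the other 4 libraries labelled knockout lay below 4 of the 5 wild-type libraries while K3 lay among them. The log2 fold change, the lowest among the members, was -0.60 ± 0.39 (SE; 95% interval -1.42 to 0.23, edgeR adjusted p = 0.541), and leaving out single libraries gave -0.87 without K3 to -0.30 without W1 (edgeR adjusted p = 0.388 and 0.824). Without W5 it was -0.85 (edgeR unadjusted p = 0.009, adjusted p = 0.181), and the unadjusted edgeR p without K3 was 0.0475. With the Rpe65 level as a covariate it was -0.77 (edgeR unadjusted p = 0.026, adjusted p = 0.275). With the rod gene level as a covariate it was -0.85 (edgeR unadjusted p = 0.038, adjusted p = 0.294). The partners of melanophilin did not share its range. Across the 10 libraries the highest level was 7.997 times the lowest in Mlph, 1.35 times in Rab27a and 1.36 times in Myo5a.

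Mitf (chromosome 6, 97807052 to 98021349), the transcription factor named above, hardly varied. It stood at 8.14, 9.31, 9.35, 7.86 and 8.89 CPM in K1 to K5, against 9.20, 9.98, 8.59, 8.54 and 8.05 CPM in W1 to W5. W5, at 8.05 CPM, lay within the range of the other libraries. The log2 fold change was -0.03 ± 0.10 (SE; 95% interval -0.25 to 0.20, edgeR adjusted p = 0.946), the narrowest interval among the members.

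Best1 (chromosome 19, 9985174 to 10001633) encodes bestrophin, a chloride channel of the basolateral membrane of the pigment epithelium. It stood at 0.463, 0.480, 0.974, 0.510 and 0.499 CPM in K1 to K5, against 0.223, 0.742, 0.846, 0.874 and 0.444 CPM in W1 to W5. Its order of libraries was unlike that of the other members, with K3 highest and W1 lowest. Each value rests on 7 to 35 counts, and the log2 fold change was -0.11 ± 0.35 (SE, edgeR adjusted p = 0.935).

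Ttr (chromosome 18, 20665250 to 20674324) encodes transthyretin, a carrier of thyroid hormone and of retinol-binding protein, made in the eye by the pigment epithelium. It stood at 104, 115, 164, 99.6 and 92.6 CPM in K1 to K5, against 142, 214, 37.1, 60.4 and 13.0 CPM in W1 to W5. The groups overlapped, and W3, W4 and W5 lay below every library labelled knockout. The means were 115 ± 28.4 CPM in the libraries labelled knockout and 93.5 ± 83.3 CPM in the wild-type libraries (SD, n = 5 each), a log2 fold change of 0.30 ± 0.49 (SE; 95% interval -0.74 to 1.34, edgeR adjusted p = 0.843). It was 0.02 without W5, 0.10 without W3, 0.14 without K3, 0.18 without W4, 0.50 without W1 and 0.87 without W2, and 0.88 with limma-voom, with adjusted p from 0.332 (edgeR, without W2) to 0.994 (edgeR, without W5).

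**Figure D2:**
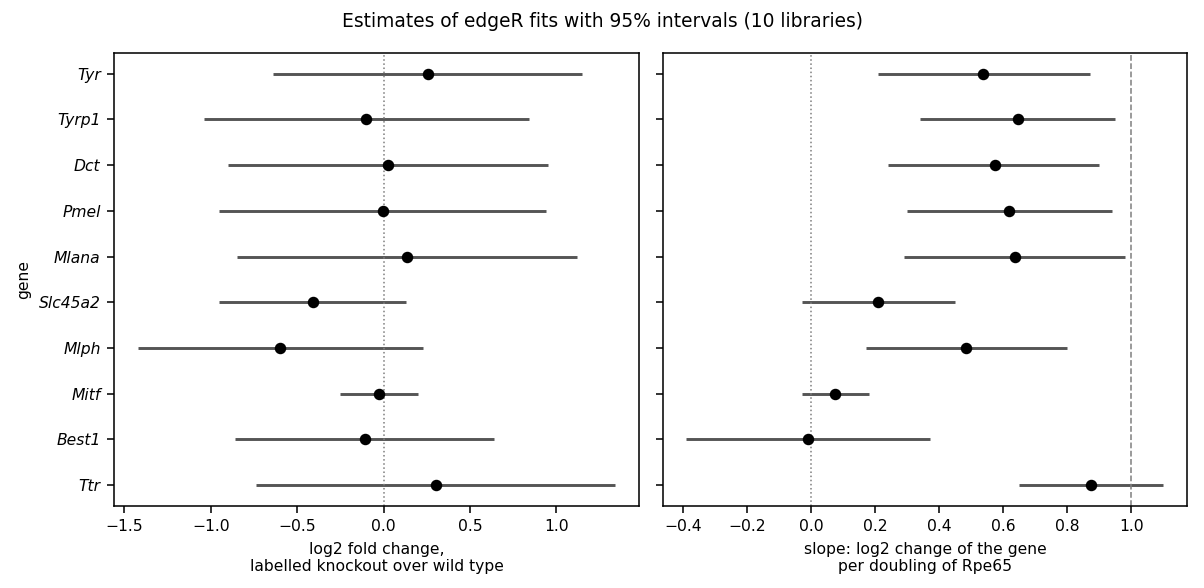
The left panel gives the edgeR log2 fold change of each gene, libraries labelled knockout over wild type, and the right panel its edgeR slope, the log2 change per doubling of Rpe65, both with 95% intervals over 10 libraries. Every interval on the left spans 0, while on the right the slope runs from -0.01 for Best1 to 0.88 for Ttr.

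Per length, as RPKM (CPM per kilobase of annotated exon), Ttr was far above the rest, at 97.0 ± 23.9 RPKM in the libraries labelled knockout and 78.8 ± 70.2 RPKM in the wild-type libraries (SD, n = 5 each). Pmel followed at 6.82 ± 2.46 RPKM in the libraries labelled knockout and 6.86 ± 5.12 RPKM in the wild-type libraries, and Dct at 6.48 ± 1.81 RPKM in the libraries labelled knockout and 6.39 ± 4.72 RPKM in the wild-type libraries. Tyrp1 stood at 3.90 ± 0.645 RPKM in the libraries labelled knockout and 4.2 ± 3.46 RPKM in the wild-type libraries, and Mlana at 3.07 ± 1.03 RPKM in the libraries labelled knockout and 2.81 ± 1.97 RPKM in the wild-type libraries. The gap between Pmel and Dct was smaller than either SD in both groups, and that between Tyrp1 and Mlana was smaller than the SD of Mlana. Mitf stood at 1.41 RPKM in the libraries labelled knockout and 1.43 RPKM in the wild-type libraries. Tyr, Mlph, Slc45a2 and Best1 lay between 0.227 and 0.393 RPKM in the libraries labelled knockout and between 0.243 and 0.398 RPKM in the wild-type libraries. In the libraries labelled knockout, Tyr (0.393 ± 0.104 RPKM) stood above Slc45a2 (0.230 ± 0.0482 RPKM) and Best1 (0.227 ± 0.0846 RPKM) by more than the SD of each (n = 5). Slc45a2, Best1 and Mlph (0.262 ± 0.105 RPKM) did not lie apart by more than the largest of their SDs there. In the wild-type libraries, Slc45a2 (0.306 RPKM), Best1 (0.243 RPKM) and Mlph (0.398 RPKM) all lay within 1 SD of Tyr (0.331 ± 0.248 RPKM, SD, n = 5).

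The spread between wild-type libraries was marked in most of these genes. Summed over the members, the level was 159.4 to 273.3 CPM in the libraries labelled knockout and 32.1 to 379.5 CPM in the wild-type libraries. In bulk tissue, fewer pigment cells and less RNA per pigment cell cannot be told apart. W5 held between 8.12% (Mlana) and 13.5% (Tyr) of the mean of the other 4 wild-type libraries in Tyr, Tyrp1, Dct, Pmel, Mlana and Ttr. In Mlph it held 18.6%, and in Slc45a2, Best1 and Mitf it held 63.0%, 66.2% and 88.7%. The rod genes of W5 were not low, at a sum of 109.2% of that mean.

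The coefficient of variation in the wild-type libraries was 70.0% for Mlana, 73.9% for Dct, 74.7% for Pmel, 74.9% for Tyr, 82.4% for Tyrp1 and 89.1% for Ttr, beside a median of 13.5% over all tested genes. Only 0.301% of tested genes varied as much as Ttr there, and 1.26% as much as Mlana. With W5 left out, the wild-type libraries still had an SD of 80.9 CPM around a mean of 113.6 CPM for Ttr, and of 1.67 around 3.65 CPM for Mlana. In the libraries labelled knockout, the same genes had coefficients of 16.5% for Tyrp1 to 36.1% for Pmel, beside a median of 12.1%. There the spread was less unusual, with 36.6% of tested genes varying as much as Tyrp1, 22.1% as much as Ttr and 9.97% as much as Pmel. Mitf, at 7.83% in the libraries labelled knockout and 8.36% in the wild-type libraries, lay below both medians. Whether the spread itself differed between the genotypes was not tested.

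**Figure D3:**
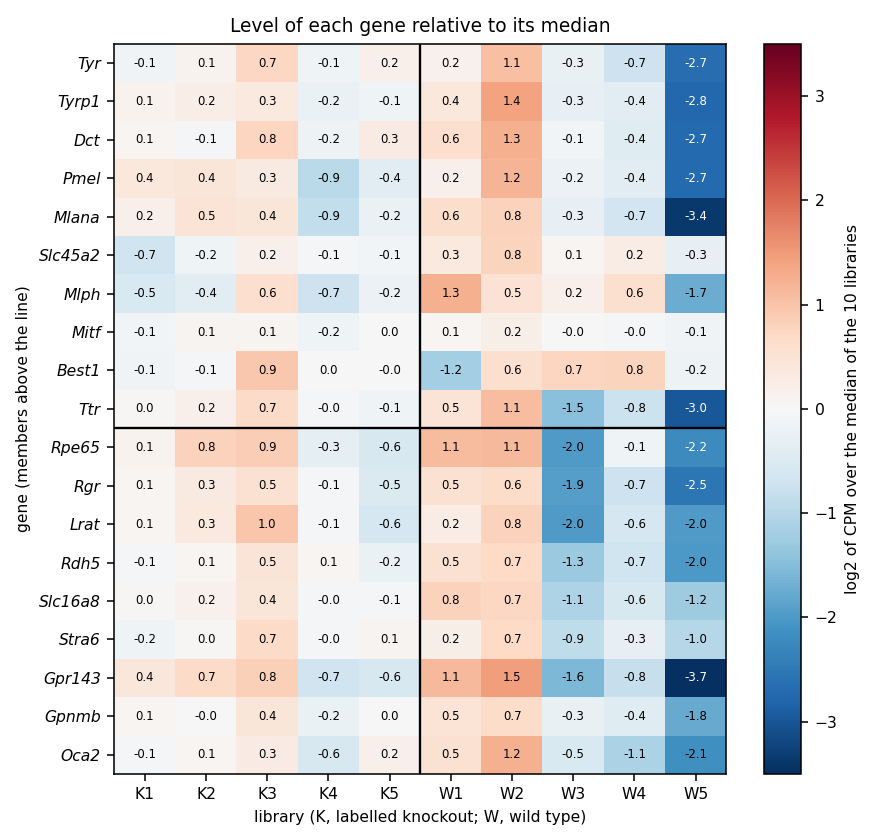
Colours and numbers give log2 of a gene's CPM over its median in the 10 libraries, with libraries labelled knockout left of wild-type libraries. Members stand above the line, and below it stands a choice from the other pigment gene lists. W5 is low in most rows shown, at -2.67 in Tyr and -2.23 in Rpe65, but not in Mitf (-0.12). W3 is low in Rpe65 (-1.97), Rgr (-1.92) and Ttr (-1.46) but not in Tyr (-0.27), Dct (-0.10) or Pmel (-0.21). Of listed genes not drawn, W5 held 103.0% of the mean of the other wild-type libraries in Serpinf1, 108.8% in Trpm3 and 105.4% in Gulp1. It held 17.99% in Kcnj13 and 17.95% in Slc6a20a.

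Rpe65, which is no member, served as a separate gauge of pigment epithelium in each library. It stood at 17.5, 27.9, 28.9, 12.8 and 10.8 CPM in K1 to K5, against 34.2, 35.02, 4.07, 14.4 and 3.40 CPM in W1 to W5. Both W3 and W5 lay below every other library. The means were 19.6 ± 8.39 CPM in the libraries labelled knockout and 18.2 ± 15.6 CPM in the wild-type libraries (SD, n = 5 each), and the log2 fold change was 0.11 ± 0.52 (SE, edgeR adjusted p = 0.954).

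Each gene's log2 level was then fitted on that of Rpe65 with genotype as a further term, in 1 edgeR fit over all genes that was chosen after the data were seen. A slope of 1 means that a gene doubles when Rpe65 doubles. Of the 10 members 1, Ttr, had a slope past an adjusted p of 0.05, where 0.121% of the 18964 genes other than Rpe65 had a positive slope past it. The slope of Ttr was 0.88 ± 0.10 (SE; 95% interval 0.65 to 1.10, edgeR adjusted p = 0.00162), and it was called when any single library was left out. The melanin genes had slopes of 0.54 ± 0.15 for Tyr, 0.57 ± 0.15 for Dct, 0.62 ± 0.15 for Pmel, 0.64 ± 0.16 for Mlana and 0.65 ± 0.14 for Tyrp1 (SE), with edgeR adjusted p from 0.144 to 0.397.

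Those melanin slopes moved with both W3 and W5. Without W5 they were 0.35 for Tyr, 0.36 for Dct, 0.43 for Pmel, 0.43 for Mlana and 0.44 for Tyrp1, with none of the 5 called (edgeR adjusted p from 0.382 to 0.917), and that of Mlph was 0.30. Without W3 they were 0.86 for Tyr, 0.94 for Dct, 0.98 for Tyrp1, 1.01 for Pmel and 1.10 for Mlana, and 6 of the 10 members were called, these 5 and Ttr (edgeR adjusted p from 0.00134 to 0.0464). With both W3 and W5 left out, 0 members and 1 gene in all were called, and the slope of Ttr was 0.76 (edgeR adjusted p = 0.474), with those of the 5 melanin genes between 0.56 and 0.86. The remaining members were not called in any of these fits. Mlph had a slope of 0.48 ± 0.15, Slc45a2 of 0.21 ± 0.11 and Mitf of 0.07 ± 0.05 (SE). Best1 had a slope of -0.01 ± 0.18 (SE; 95% interval -0.39 to 0.37), whose sign turned when K2, W1 or W3 was left out.

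**Figure D4:**
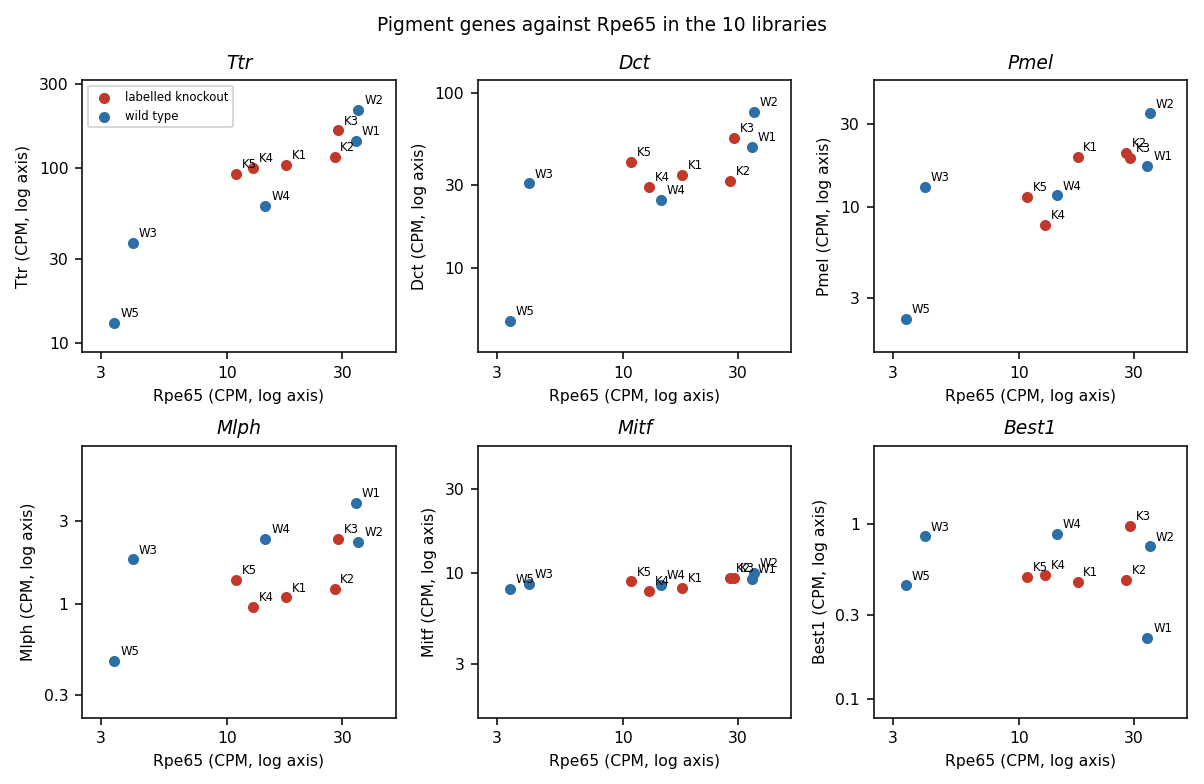
Each panel sets a gene (CPM, log axis) against Rpe65 (CPM, log axis), 1 point per library, with the same fold range on all 6 vertical axes. Ttr follows Rpe65 in both groups, W3 at 4.07 CPM of Rpe65 lies well above W5 in Dct (30.6 against 5.003 CPM) and Pmel (13.1 against 2.28 CPM), and Mitf and Best1 have nearly flat slopes of 0.07 and -0.01.

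The ratio to Rpe65 shows how W3 differs. W3 had 3.21 times as much Pmel as Rpe65 on the CPM scale, where the other 9 libraries had 0.505 to 1.11 times. For Dct the ratio was 7.51 in W3 and 1.13 to 3.73 in the other 9, for Tyrp1 2.08 against 0.398 to 0.870, for Tyr 0.5 against 0.0801 to 0.258, and for Mlana 0.623 against 0.0870 to 0.244. Rgr, an opsin of the pigment epithelium, had a ratio of 4.35 in W3, within the 2.83 to 4.95 of the other 9. For Ttr it was 9.12 in W3, just above the 3.81 to 8.55 of the other 9. W3 was thus low in Rpe65, Rgr and Ttr but had levels of Pmel, Dct, Tyrp1, Tyr and Mlana in the range of the other libraries other than W5. Not every gene followed this split. The pigment epithelium gene Rrh, at 25.2 CPM in W3, lay among the other libraries, and the pigment cell gene Gpr143, at 0.132 CPM, lay below every library but W5. The part of other pigmented tissue in W3 was not tested.

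Correlations over the 10 libraries were computed for the same 10 members. Pearson's r with Rpe65 on log2(CPM + 0.5) was 0.92 for Ttr, with a Spearman coefficient of 0.95 (permutation p = 0.00011 and 0.00016), and 0.77 to 0.83 for Dct, Tyr, Pmel, Tyrp1 and Mlana (permutation p from 7e-05 to 0.00556), whose Spearman coefficient was 0.75 to 0.92 (permutation p from 0.00058 to 0.018). It was 0.67 for Mitf (Spearman 0.73, permutation p = 0.0333 and 0.0198), 0.61 for Mlph (0.62, 0.0606 and 0.0600), 0.44 for Slc45a2 (0.58, 0.213 and 0.0876) and -0.09 for Best1 (0.06, 0.797 and 0.892). At an unadjusted permutation p under 0.05, 7 of the 10 members had a positive r, against 2.77% of the 18964 genes. On deviations from the genotype means, with exact permutation within the groups, 9 of the 10 members had a positive r at an unadjusted p under 0.05, against 3.53% of genes. After Benjamini-Hochberg adjustment over all those genes, the permutation test called 0 members and 0% of genes (lowest adjusted p among the members 0.221). With 100000 permutations the smallest possible permutation p is 1e-05, which over 18964 genes cannot pass for a gene on its own. The 14400 permutations within the groups reach less far still. These counts of 0 are therefore no result about the members, and cannot be set against the 1 call of the edgeR slope. Leaving out W3 and W5, the 2 libraries farthest from the median of Rpe65, r was 0.80 for Ttr, 0.64 to 0.89 for the melanin genes Dct, Tyr, Pmel, Tyrp1 and Mlana, and -0.05 for Best1. Members share libraries and depth with Rpe65, and are not independent of one another.

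A called positive slope on Rpe65, as in Ttr, was found in several other genes of the pigment epithelium. Of 15 listed, which include the retinoid enzymes Lrat and Rdh5, the retinol receptor Stra6 and the lactate transporter Slc16a8, 0 were called between the genotypes by edgeR and 2 had an unadjusted p under 0.05. Of all tested genes, 2.03% were called and 13.8% had such an unadjusted p, so neither count is a result about these genes. Of the 14 other than Rpe65, 6 had a called positive slope on Rpe65 and 0 a called negative one (median 0.42, beside -0.0013 over all genes). These were Rgr at 0.87 ± 0.05, Lrat at 0.83 ± 0.07, Slc6a20a at 0.81 ± 0.12, Rdh5 at 0.67 ± 0.07, Slc16a8 at 0.58 ± 0.07 and Stra6 at 0.44 ± 0.07 (SE, edgeR adjusted p from 1.22e-06 to 0.0127). Without W3 and W5 the call of Rgr held (0.78, edgeR adjusted p = 0.0346) and the other 5 did not pass, with slopes of 0.88 for Lrat, 0.92 for Slc6a20a, 0.59 for Rdh5, 0.58 for Slc16a8 and 0.42 for Stra6 (edgeR adjusted p from 0.141 to 0.747). Rgr stood at 70.3, 83.3, 97.2, 63.6 and 46.7 CPM in K1 to K5, against 96.7, 104, 17.7, 40.8 and 11.5 CPM in W1 to W5, so that W3, W4 and W5 lay below every library labelled knockout, as in Ttr. Enpp2, which encodes the secreted enzyme autotaxin, had a slope of 0.19 ± 0.06 (SE, edgeR adjusted p = 0.612). The other uncalled slopes of this list were 0.69 for Kcnj13, 0.40 for Slc26a7, 0.38 for Cdh3 and 0.16 for Rrh. Trpm3 was nearly flat at 0.075, and Gulp1 at -0.048 and Serpinf1 at -0.057 had negative slopes.

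Of 7 further pigment cell genes, 6 were tested and 0 were called between the genotypes, which is no result about them where 2.03% of tested genes were called. Gpr143, the melanosome receptor of ocular albinism, had a called slope of 1.17 ± 0.17 (SE, edgeR adjusted p = 0.00627), which 8 of 10 fits that left out a library called. It stood at 0.240 to 0.696 CPM in the libraries labelled knockout and at 0.0296 to 1.08 CPM in the wild-type libraries, the lowest value being 1 count in W5. Trpm1, shared by melanocytes and ON bipolar cells, stood at 251.7 to 333.2 CPM in the libraries labelled knockout and at 234.3 to 328.1 CPM in the wild-type libraries, and its slope of 0.14 ± 0.04 (SE) did not pass (edgeR adjusted p = 0.397).

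Genes of melanosome trafficking, most of which act in many cell types, had a median slope of 0.00. Of 16, which include Rab27a, Myo5a and the subunits mutated in Hermansky-Pudlak syndrome, 0 were called between the genotypes and 0 had a called slope. With 2.03% of tested genes called between the genotypes and 0.132% of genes called for a slope, neither 0 is a result about these genes. Their summed level was 747.4 to 848.8 CPM in the libraries labelled knockout and 771.5 to 824.2 CPM in the wild-type libraries, and W5 was the highest wild-type library.

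Markers of neighbouring tissues were read for the same libraries. A slope was called in 0.132% of all genes, so a count of 0 in such short lists is no result about their genes. Of 4 choroidal melanocyte markers, Sox10, a transcription factor of neural crest cells and their glia and melanocytes, had a called slope of 0.79 ± 0.14 (SE, edgeR adjusted p = 0.0377), and 3 of 10 fits that left out a library called it. Sox10 stood at 0.528 to 1.25 CPM in the libraries labelled knockout and at 0.178 to 1.51 CPM in the wild-type libraries. The other 3 were not called, and Kit stood at 8.86 ± 0.945 CPM in the libraries labelled knockout and 10.7 ± 1.34 CPM in the wild-type libraries (SD, n = 5 each). Stromal markers of choroid and sclera had a summed level of 16.9 to 35.4 CPM in the libraries labelled knockout and 18.4 to 27.4 CPM in the wild-type libraries. Of 5 tested, 0 had a called slope. The slopes were 0.478 ± 0.165 for Col3a1 and 0.47 ± 0.139 for Dcn (SE), against 0.08 for Col1a2, 0.01 for Col1a1 and -0.02 for Pdgfra. Dcn was called in 1 of 10 fits that left out a library. The ciliary body and iris list, led by Col9a1, had 0 of 4 called. Lens crystallins were close to 0, with a sum of 5 genes of at most 0.445 CPM in the libraries labelled knockout and 0.618 CPM in the wild-type libraries, and Cryaa had no count in K5 and W5. Corneal markers were uneven between libraries. Krt14 stood at 0.150 to 14.4 CPM in the libraries labelled knockout and at 0.148 to 14.1 CPM in the wild-type libraries, and 0 of the 4 corneal genes had a called slope (median 0.41).

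For genes of the neural retina, the median slopes were -0.04 over 6 rod genes and 0.05 over 8 other retinal genes, led by the glial enzyme gene Glul. None of them had a called slope, which is no result about them where 0.132% of all genes were called. Between the genotypes, 1 of these 14, the rod arrestin Sag, was called lower, where 2.03% of all tested genes were called. Sag stood at 4818.6 ± 646.1 CPM in the libraries labelled knockout and 7682.3 ± 540.3 CPM in the wild-type libraries (SD, n = 5 each). Its log2 fold change was -0.67 ± 0.11 (SE, edgeR adjusted p = 0.00267).

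The genes whose levels were most like the melanin genes were ranked by Pearson's r over the 10 libraries on the log2 scale with the summed CPM of Pmel, Tyrp1, Tyr, Dct, Mlana and Slc45a2, as a description. The first 10 were Gpnmb (0.99), Mfrp (0.97), Smad6 (0.95), Ptgds (0.95), Tmem51 (0.94), Gja1 (0.94), Oca2 (0.92), Arhgap31 (0.92), Tgfbr3 (0.91) and Fam69c (0.91). Of these, 2, the melanosome glycoprotein gene Gpnmb and the melanosome channel gene Oca2, were on the pigment cell list. Mfrp encodes a membrane protein of the pigment epithelium and ciliary epithelium, Ptgds a prostaglandin D synthase, and Gja1 the gap junction protein connexin 43. Rpe65 came 83rd, with an r of 0.80. The ranking takes no account of how far a gene varied, and no r without W5 was computed for it. Smad6 stood at 2.505 to 2.653 CPM in the libraries labelled knockout and at 1.984 to 3.152 CPM in the wild-type libraries. The 6 summed genes stood at 50.5 to 97.0 CPM and at 10.1 to 152.2 CPM.

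Ptgds stood at 171, 181, 323, 151 and 154 CPM in K1 to K5, against 218, 393, 83.2, 109 and 32.2 CPM in W1 to W5. Gja1 stood at 9.39, 8.27, 13.4, 9.93 and 8.80 CPM in K1 to K5, against 12.3, 18.5, 5.603, 6.54 and 2.58 CPM in W1 to W5. In both, W2 was highest and W5 lowest, and W3 and W4 lay below every library labelled knockout. None of the 10 was called between the genotypes, where 2.03% of tested genes were. Their edgeR adjusted p ran from 0.329 for Arhgap31 to 0.986 for Smad6.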

How the data were processed

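Retina RNA was sequenced in 10 libraries. The authors deposited whole-number counts per gene without scaling. The submitters' processing notes name the build GRCm38.p5 and the tools STAR 2.5.3a, featureCounts 1.15.2, DESeq2 1.14, FastQC and bcl2fastq, while strand and multi-mapping settings are unknown here. Log2 fold changes and p-values of the authors stand beside the counts, per the file headers, and were read only for the members. The members and gene lists were chosen with earlier results of these data known.

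Genes were kept with filterByExpr (minimum count 10, minimum total 15), scaled with TMM and tested with edgeR 4.0.16 (glmQLFit, glmQLFTest, R 4.3.3), checked on simulated counts. SE is the absolute estimate over the square root of F, and 95% intervals use the t distribution of the fit. Exon lengths came from GENCODE M21, matched by identifier without version. Correlations used 100000 permutations, adjusted over all genes instead of over the members. Alternatives were DESeq2 1.42.0, limma-voom 3.58.1, other scalings, no filter, covariates and leaving out libraries. All members were named, with called genes and the gene of highest CPM of the other lists (1 such gene is not reported here, and a further listed gene, Lim2, was not analysed here), and the 10 genes most like the melanin genes.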

Additional observations from a re-analysis of the deposited data

Results flagged for a closer look

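In the 20 sets of 5 libraries looked at (10 genes in 2 groups), 1 had a library far from the rest. Best1 stood at 0.974 CPM in K3, against 0.463 to 0.510 CPM in the other libraries labelled knockout, from 35 counts in K3. Chance gives about 1 such library in 20 sets. W5 lies far below the rest in most of the members but was not picked out by this measure.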

How the results depend on the processing

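The 0 members called between the genotypes remained 0 in all 17 alternatives. Genes called over the whole table numbered 163 higher and 222 lower, against 298 and 406 without a low-count filter, 321 and 442 with DESeq2, and 71 to 253 higher and 140 to 289 lower when single libraries were left out (higher calls: 93 without K3, 71 without K4, 84 without K5 and 253 without W2, and 140 lower without K4). Members' fold changes near 0 changed sign in 21 of 170 recomputed values, none of them called, and the cause was not tested. With limma-voom, Pmel was at 0.37 and Tyrp1 at 0.41. With Rpe65 as a covariate, Dct was at -0.053 and Mlana at -0.033, and with rod genes as a covariate, Pmel was at 0.009 and Dct at -0.01. Leaving out single libraries gave -0.28 to 0.50 for Pmel, -0.38 to 0.48 for Tyrp1, -0.017 to 0.749 for Tyr, -0.26 to 0.48 for Dct, -0.16 to 0.46 for Mlana, -0.058 to 0.02 for Mitf and -0.371 to 0.043 for Best1. Leaving out W5 gave the low end and W2 the high end of the first 5 of these. The ranges were -0.52 to -0.25 for Slc45a2, 0.02 to 0.87 for Ttr and -0.87 to -0.30 for Mlph. The slope on Rpe65 was called in 25 genes, 9 to 37 when single libraries were left out (9 without W5) and 1 without W3 and W5. Members called numbered 1, 1 to 6 with single libraries left out (6 without W3) and 0 without W3 and W5. The slope of Best1 ran from -0.12 to 0.17. Correlations called 0 members with an offset of 0.1 CPM and on deviations from the genotype means, where the number of permutations left a single gene unable to pass. Best1 and Slc45a2 rest on at most 42 counts in a library. No paired analysis was possible because the labels give no replicate numbers shared by the groups.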
